A study of Danio rerio with 4 samples.

Results

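Epidermal and fin fold expression was followed through 8 genes, selected by symbol: tp63, epcam, cdh1, evpla, ppl, anxa1a, and1 and and2. All 8 were found among 28697 gene symbols, and 24 of the 57596 deposited transcripts belonged to them. The material was whole zebrafish embryos (Danio rerio) injected at the one-cell stage with morpholinos, antisense oligomers that block translation or splicing of a target mRNA. Control embryos received 8 ng of a control morpholino, and the others received morpholinos against rbm14a (4 ng) and rbm14b (4 ng), the zebrafish having both paralogs of the RNA-binding protein gene rbm14. Every group also carried 300 pg of GFP mRNA as an injection marker, and 50 embryos were pooled per library. There was 1 library for each morpholino treatment at 10 and at 24 hours post fertilization (hpf), and the series asks how Rbm14 takes part in dorsoventral patterning. The labels do not say whether these morpholinos act on translation or on splicing, and no uninjected or rescued embryos are among the samples.

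At the end of gastrulation the zebrafish ectoderm is covered by the enveloping layer, which becomes the periderm, the outermost skin layer of the embryo. The basal epidermal layer beneath it forms from ventral ectoderm, where BMP signalling switches on tp63, the transcription factor gene of basal keratinocytes. Fin folds later rise from this epidermis along the midline and are stiffened by actinotrichia, fibres built of collagens and actinodins. The members cover these steps. The gene epcam encodes an epithelial adhesion molecule and cdh1 encodes E-cadherin. The products of evpla and ppl are the plakins envoplakin and periplakin, which link keratin filaments to the cell edge. The gene anxa1a encodes a calcium-dependent phospholipid-binding annexin, and and1 and and2 encode actinodins.

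Expression values were transcripts per 1000000 (TPM), a length-corrected abundance that sums to that total in each library, and transcripts were added up by gene symbol. TPM keeps no sequencing depth, so the depth and the counting error behind each value are unknown. With 1 library per group there was no replicate check and no p-value, and every comparison describes the libraries compared. Differences are log2 ratios of TPM + 0.5 after scaling each pair of libraries by a trimmed mean, which removed a log2 shift of −0.25 (rbm14 over control) at 10 hpf and 0.64 at 24 hpf. Folds are these same scaled ratios of TPM + 0.5 without the logarithm, so they differ from the quotient of the printed TPM values. Where 2 TPM values of 1 stage stand together, the control comes first. A gene counted as measured when the higher scaled value reached 5 TPM, and as past the size rule when it was also at least 2-fold apart. In a bulk sample, fewer cells of a type and less RNA per cell cannot be told apart. The targeted genes stayed detectable: with the control value first, rbm14a had 170 and 254 TPM at 10 hpf, then 70.5 and 82.7 TPM, and rbm14b had 28.8 and 19.3 TPM, then 21.0 and 28.2 TPM. Neither was past the size rule, and the values do not measure the knockdown, since a translation block need not lower the mRNA.

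The actinodin genes had the lowest log2 ratios of the members at 24 hpf. Both were near 0 at 10 hpf, were present in the 24 hpf control library, and were several-fold lower in the 24 hpf rbm14 library. At 24 hpf they reached the TPM floor only through the control library, where they are high. Their place past the size rule is therefore not read as a result. The other 6 members lay between the size limits at 24 hpf, with log2 ratios from −0.28 (tp63) to 0.62 (evpla).

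**Figure D1:**
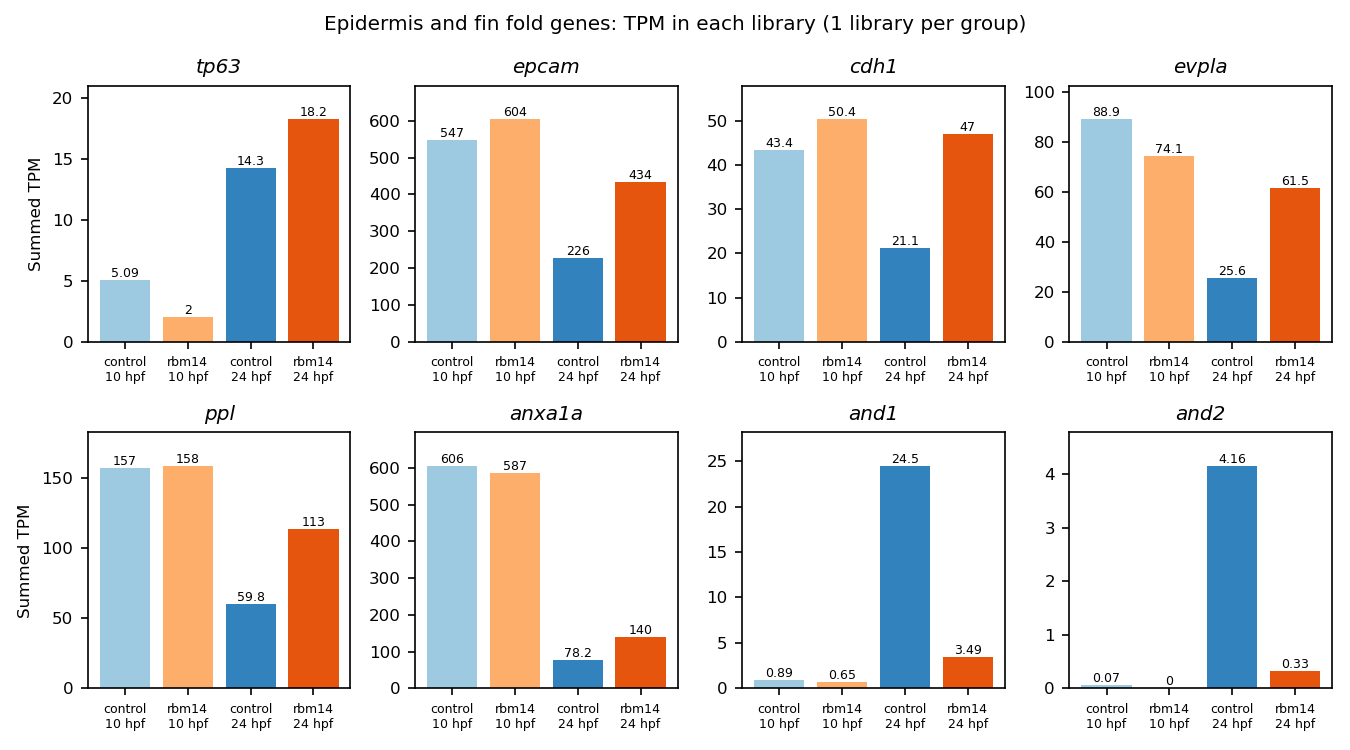
Summed TPM (y axis, linear, from 0) of each of the 8 genes in the 4 libraries (x axis), with 1 bar per library and no error bar because there is 1 library per group. The and1 bar reaches 24.5 TPM in the 24 hpf control and 3.49 TPM in the 24 hpf rbm14 library, while the epcam bars at 24 hpf are 226 and 434 TPM.

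The levels, which are per length and so can be compared between genes, covered a wide range. In the 10 hpf control library anxa1a was the highest member at 606 TPM, followed by epcam at 547, ppl at 157, evpla at 88.9, cdh1 at 43.4, tp63 at 5.09, and1 at 0.89 and and2 at 0.07 TPM. In the 10 hpf rbm14 library epcam (604 TPM) stood above anxa1a (587 TPM), and the other positions were the same. At 24 hpf the control order was epcam, anxa1a, ppl, evpla, and1, cdh1, tp63 and and2. In the rbm14 library of that stage and1 had moved from the 5th to the 7th place, below cdh1 and tp63. No spread is available to say which neighbours in these orders differ. Against all genes at 1 TPM or more, epcam lay above 97.9% in the 10 hpf control and above 96.7% in the 24 hpf control, whereas tp63 lay above 38.3% and 71.1%. Together the members took 0.145% of all TPM in the control and 0.148% in the rbm14 library at 10 hpf, and 0.0454% and 0.0818% at 24 hpf.

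The question at 10 hpf was whether epidermal genes differ between the treatments when the epidermis has just been specified. None of the 5 measured members (epcam, cdh1, evpla, ppl, anxa1a) was past the size rule, where 9.03% of all 7212 measured genes were (3.79% as higher and 5.24% as lower). The median log2 ratio of these 5 was 0.27, beside 0.073 over all measured genes. Without rescaling, 6 members were measured, 3 with ratios above and 3 below 0, and their median was −0.015 beside −0.19 over all genes. The lowest of the 8 values belonged to tp63, which was not measured under the rule because its scaled control level was just under 5 TPM.

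The 10 hpf tp63 level was 5.09 TPM in control embryos and 2.00 TPM in rbm14 embryos. The log2 ratio was −0.95, or −1.16 without rescaling, where the gene was past the size rule as lower. It then reached the 5 TPM floor only through the control library, where it is high, so this call is not read as a result. The tp63 transcript ENSDART00000065137 had 2.63 TPM in control and 0.40 TPM in rbm14 embryos. ENSDART00000065135 had 0.68 and 0.80 TPM, so the main control transcript was no longer the most abundant. These are small TPM values, and the authors' estimate may divide reads between overlapping transcripts.

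The adhesion genes epcam and cdh1 differed little at 10 hpf. From control to rbm14 library, epcam went from 547 to 604 TPM (log2 ratio 0.39) and cdh1 from 43.4 to 50.4 TPM (0.46). Within each library epcam exceeded cdh1 by a near-constant factor, 12.6 in the control and 11.99 in the rbm14 library.

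Of the plakin genes, evpla had 88.9 TPM (control) and 74.1 TPM (rbm14) at 10 hpf (log2 ratio −0.011, and 0.12 for its most abundant transcript alone). Its partner ppl had 157 and 158 TPM (0.27). For anxa1a the levels were 606 and 587 TPM, and the log2 ratio of 0.21 turned to −0.046 without rescaling. The main anxa1a transcript, ENSDART00000031665, held 94.6% and 95.3% of the gene's TPM. Minor transcripts exchanged places, with ENSDART00000145353 at 23.9 and 3.97 TPM and ENSDART00000146194 at 4.06 and 19.1 TPM.

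The actinodin genes were barely present at this stage. And1 had 0.89 TPM (control) and 0.65 TPM (rbm14), and and2 had 0.07 TPM in control embryos and was listed at 0 in rbm14 embryos. No difference can be read from levels this low.

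At 24 hpf all 8 members were measured, and the comparison asks how the same genes stand once skin and fin folds have formed. The 2 actinodins passed the size rule as lower, no member passed it as higher, and 6 lay between, where 16.3% of 8681 genes were past the rule (9.99% as lower and 6.27% as higher). The median log2 ratio of the members was 0.24, beside −0.015 over all measured genes, and without rescaling these were 0.92 and 0.65. And1 and and2 passed the TPM floor only through the control library, where they are high, so the share called among the measured members is not read as a result.

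At 24 hpf the and1 level was 24.5 TPM with the control morpholino and 3.49 TPM in the rbm14 library. On TPM + 0.5 the rbm14 library was 9.42-fold lower (log2 ratio −3.24), and 6.26-fold lower without rescaling. The unscaled TPM values alone stood 7.01-fold apart. A lower ratio was found for 0.357% of measured genes. Levels of and2 were 4.16 and 0.33 TPM, which is 12.6-fold apart. On scaled TPM + 0.5 and2 was 7.45-fold lower (log2 ratio −2.90), with 0.530% of measured genes below it. Both genes were measured only through the control library, where they are high, so these ranks are not read as a result. Without rescaling the and2 log2 ratio was −2.49, but then its 4.16 TPM lay under the 5 TPM floor. Each actinodin has 1 transcript in the deposited tables, so no division among transcripts of the same gene enters these values.

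Ratios within a library do not depend on the scaling. The and1 level was 1.72 times that of tp63 in the 24 hpf control and 0.191 times in the rbm14 library. Set against epcam, it was 0.108 and 0.00804 times, a ratio chosen after the values were seen. The and2 level was 0.170 times that of and1 in the control and 0.0946 times in the rbm14 library. Set against the basal keratin gene krtt1c19e, and1 stood at 0.297 and 0.198 times its level, a ratio also chosen after the values were seen, so the size of the difference depends on the partner gene.

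**Figure D2:**
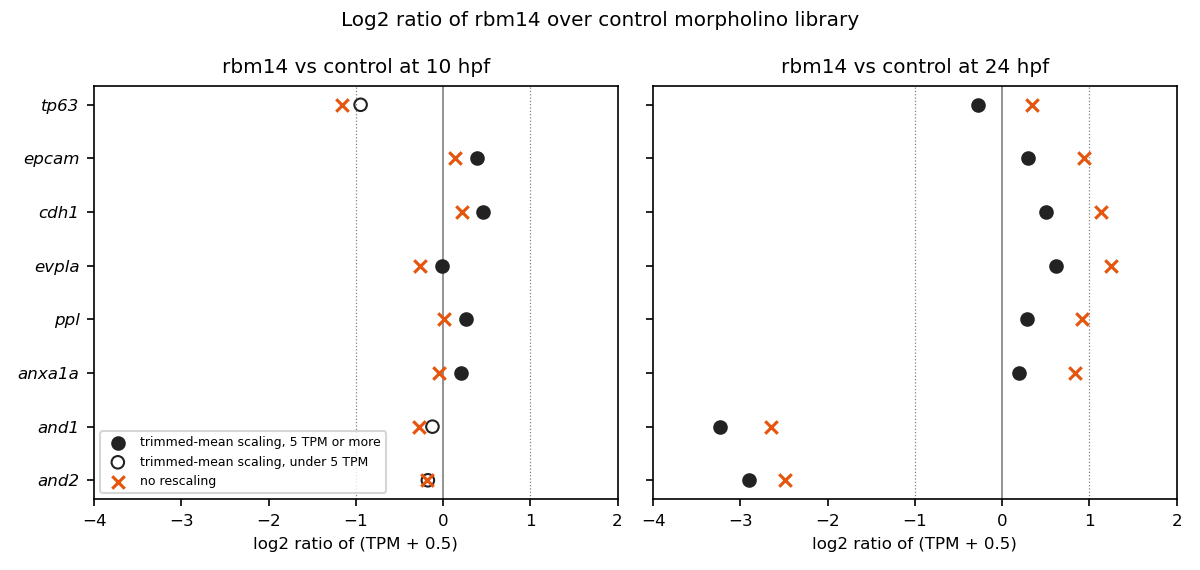
Log2 ratio of the rbm14 over the control library (x axis, TPM + 0.5) for each of the 8 genes (y axis) at 10 hpf on the left and 24 hpf on the right. Filled circles are trimmed-mean scaled values of measured genes, open circles those under 5 TPM, crosses are values without rescaling, and dotted lines mark 2-fold; and1 (−3.24) and and2 (−2.90) lie far left at 24 hpf, while the crosses of cdh1 (1.13) and evpla (1.25) pass the right-hand line.

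The 24 hpf level of the regulator tp63 was 14.3 TPM (control) and 18.2 TPM (rbm14). Its log2 ratio was −0.28 and turned to 0.34 without rescaling, so no direction is given. The transcript ENSDART00000065137 held 66.8% of tp63 in the control and 62.2% in the rbm14 library, and ENSDART00000123189 held 10.0% (1.43 TPM) and 20.7% (3.78 TPM).

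For epcam the 24 hpf level was 226 TPM (control) and 434 TPM (rbm14), with a log2 ratio of 0.30 (0.94 without rescaling). For cdh1 it was 21.1 and 47.0 TPM (0.50, and 1.13 without rescaling, past the rule as higher). The epcam level was 10.7 times that of cdh1 in the control and 9.24 times in the rbm14 library. Among cdh1 transcripts, ENSDART00000167882 had 11.0 and 33.5 TPM while ENSDART00000172179 had 9.16 and 11.6 TPM, so the higher summed level in the rbm14 library lay mostly in the first.

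The plakin gene evpla had the highest log2 ratio of the members at 24 hpf, 0.62, from 25.6 TPM (control) and 61.5 TPM (rbm14). This value depended on the transcripts. ENSDART00000143263 held 50.1% of evpla in the control (12.8 TPM) and was listed at 0 in the rbm14 library, while ENSDART00000026448 had 12.8 and 61.5 TPM. With this more abundant transcript alone the log2 ratio was 1.62, past the rule as higher, and without rescaling the summed value was 1.25, also past it. The levels of ppl were 59.8 and 113 TPM (0.28), and those of anxa1a 78.3 and 140.0 TPM (0.20). The ppl level was 2.34 times that of evpla in the control and 1.84 times in the rbm14 library.

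**Figure D3:**
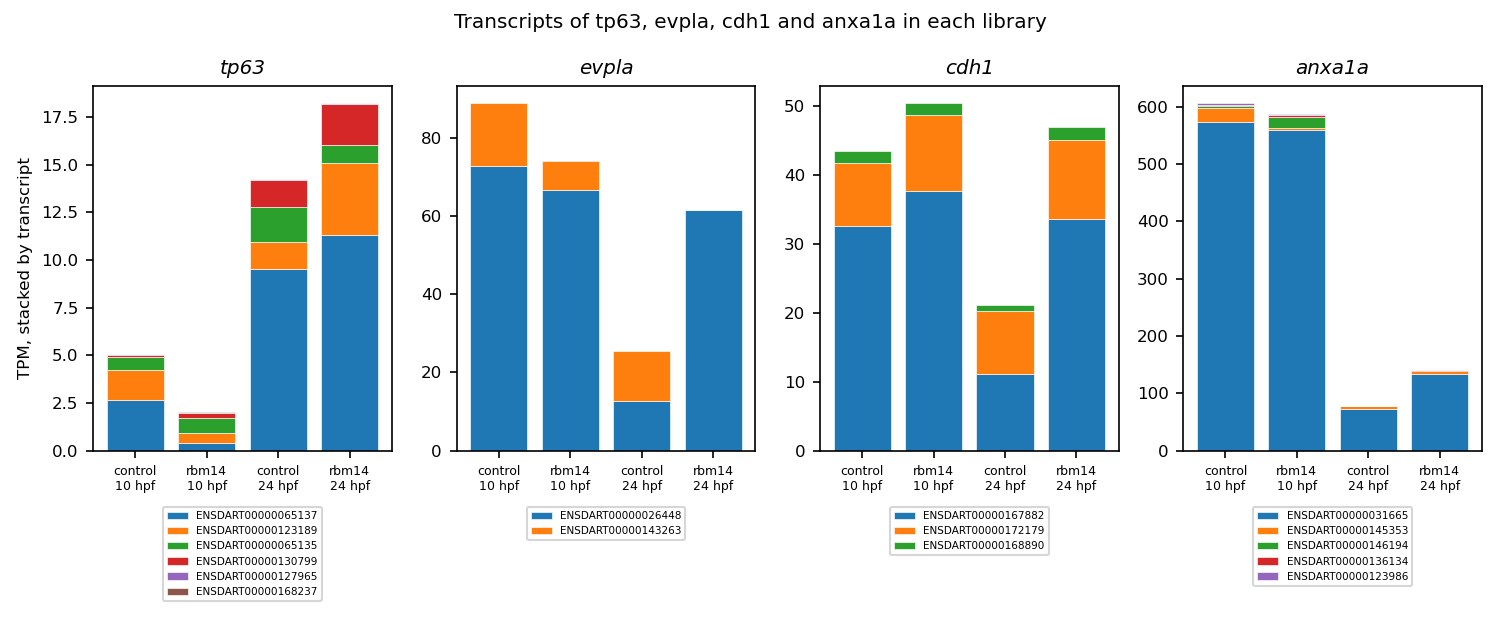
TPM (y axis, linear, from 0) of tp63, evpla, cdh1 and anxa1a in the 4 libraries (x axis), stacked by Ensembl transcript. The orange evpla segment, ENSDART00000143263, is 12.8 TPM in the 24 hpf control and is listed at 0 in the 24 hpf rbm14 library; the main anxa1a transcript makes up nearly the whole bar in every library.

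The stage comparisons show how the members change as the skin matures, and they use the same 4 libraries as the comparisons above. Between the control libraries, 2 of 7 measured members were past the size rule as higher at 24 hpf, 2 as lower and 3 lay between, where 54.0% of 8770 genes were past the rule (32.1% as higher and 21.9% as lower), so the count is not particular to these genes. And1 was 24.0-fold higher (log2 ratio 4.59) and tp63 was 3.71-fold higher (1.89), whereas anxa1a was 5.36-fold lower (−2.42) and evpla 2.40-fold lower (−1.26). Of these, and1 and tp63 reached the floor only through the 24 hpf library (0.74 and 4.25 scaled TPM at 10 hpf). Their count as higher is therefore not read as a result. The ratios of epcam (−0.75), ppl (−0.86) and cdh1 (−0.51) were below 0, and without rescaling, which had removed a shift of −0.52, these 3 were past the rule as lower too. Of all 8784 genes measured without rescaling, 3282 were past it as lower.

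Between the rbm14 libraries, where 57.1% of 9313 genes were past the rule (33.9% as higher and 23.2% as lower) and the shift removed was 0.37, tp63 was 5.98-fold higher at 24 hpf (log2 ratio 2.58) and anxa1a was 5.38-fold lower (−2.43). The 4 other measured members lay between, among them evpla at −0.63. Here too tp63 reached the floor only through the 24 hpf library, with 2.27 scaled TPM at 10 hpf. Levels of and1 were 0.65 and 3.49 TPM and stayed under the 5 TPM floor (1.53), beside 0.89 and 24.5 TPM in the controls. The ratios of anxa1a, epcam (−0.84), ppl (−0.85) and cdh1 (−0.46) stood close to their control values of −2.42, −0.75, −0.86 and −0.51. Those of and1, evpla and tp63 lay further from their control values of 4.59, −1.26 and 1.89, and the and1 value was under the floor. Whether any of these stage ratios differs between the treatments could not be tested with 1 library per group.

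The members were unequally alike in their pattern over the 4 libraries. Likeness was measured as the Euclidean distance between log2(TPM + 0.5) profiles centred on their own mean. The closest pairs were epcam with ppl (0.11), evpla with ppl (0.32) and epcam with cdh1 (0.35). And1 and and2 lay 1.11 apart, which was the shortest distance of and1 to any member, and tp63 lay 2.14 from and2 and 2.36 from and1. Among 8505 named candidates, the genes closest to tp63 were anxa11a (0.063), cebpd (0.084) and tpst1l (0.11). The closest to and1 were the melanin synthesis gene tyrp1b (0.32), the crystallin gene cryba2a (0.44) and her8.2 (0.48), and the closest to and2 were the crystallin gene cryba4 (0.27), the neutrophil peroxidase gene mpx (0.34) and the lens channel gene mipa (0.40). Genes near epcam were grsf1, grnb and npat, and those near ppl were rpp38, yod1 and bsg. Near cdh1 were nars, acbd3 and hccsb, near evpla fbrs, kif26ab and zbtb5, and near anxa1a asah1a, fbxo18 and ppp1r3ca, all within 0.12 (log2 units). Over 4 libraries this likeness is a description of profiles only.

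Related genes were described by lists of 151 names, of which 140 were deposited symbols, 3 were found by a synonym and 8 were not found. The other fin fold genes gave 13 measured ones at 24 hpf. Among them 2 passed as higher, 1 passed as lower and 10 lay between, beside 6.27% higher and 9.99% lower over all genes. The median log2 ratio was −0.090, or 0.56 without rescaling. Without rescaling 3 of 14 were higher and none was lower, beside 2459 higher and 250 lower of all 9121 genes. Then fras1 and frem1b reached the floor only through the rbm14 library, so this count is not read as a result. With median-of-ratios scaling 1 rather than 2 was higher, since frem3 lies at the limit. The higher ones were frem1b (2.08 TPM control, 8.08 TPM rbm14, 2.25-fold), which reached the floor only through the rbm14 library, and frem3 (18.9 and 59.7 TPM, 2.01-fold), which encode extracellular matrix proteins of the Fraser family. The lower one was the posterior Hox gene hoxa13a (17.6 and 8.77 TPM, 2.98-fold), and sp8b, a transcription factor gene of the fin fold ridge, had 235.6 and 192 TPM (−0.93). A further actinodin gene, and3, was under 0.5 TPM in every library (0.43 and 0.35 TPM at 24 hpf), and the Fraser complex gene fras1 had 2.04 and 6.33 TPM. At 10 hpf only 3 fin fold genes were measured, and sp8b was past the rule as lower (140.7 and 53.2 TPM, 2.21-fold), beside 5.24% lower over all genes.

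Genes that anchor basal epidermal cells to the basement membrane were measured at 24 hpf in 6 of 13 cases. Of these, 2 passed the rule as higher, 4 lay between and none was lower, beside 6.27% higher over all genes, with a median of 0.70. Without rescaling 6 of 7 were higher, with a median of 1.34, beside 2459 higher of all 9121 genes then measured. Of these 7, itga3b (1.47 and 5.44 TPM), itga6a (4.02 and 9.09 TPM) and col7a1 (4.73 and 9.69 TPM) reached the unscaled floor only through the rbm14 library. The unscaled count is therefore not read as a result. The laminin chain gene lama5 (3.86 and 10.1 TPM) reached the floor only through the rbm14 library, and the integrin genes itga6b (3.63 and 4.70 TPM) and itgb4 (2.47 and 3.59 TPM) did not reach it. Over all 13, with no floor, 7 ratios were above and 6 below 0, so nothing is read from the sign of the measured ones. The laminin chain gene lamc1 stood at 11.5 and 40.8 TPM (2.23-fold higher) and the collagen gene col7a1l at 6.64 and 22.9 TPM (2.14-fold). At 10 hpf the laminin chain gene lamb1a was past the rule as lower (65.2 and 15.4 TPM, 3.49-fold), while at 24 hpf it had 14.7 and 38.0 TPM (0.71). The laminin genes are expressed in many tissues and are not limited to skin.

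Genes of the desmosome, the junction that the plakins serve, had 2 of 10 measured past the rule at 24 hpf, both as higher, beside 6.27% higher over all genes. All 10 ratios were above 0, as were 49.0% of those of all measured genes, and the median was 0.37. Without rescaling 5 of 10 were past the rule as higher, as were 2459 of all 9121 genes then measured. The median was then 0.98, and 82.4% of all ratios were above 0. The genes pkp2 (3.54 and 10.7 TPM) and plecb (3.69 and 9.20 TPM) reached the floor only through the rbm14 library. Without rescaling pkp1b (4.02 TPM in the control) did too, so the unscaled count is not read as a result. Over all 12 matched genes, with no floor, 11 ratios were above and 1 below 0. Because 2 of the measured genes entered through their higher library, nothing is read from the sign of the measured ones. The desmosomal cadherin gene dsg2.1 had 7.41 and 27.8 TPM (2.33-fold higher) and the plakophilin gene pkp1b 4.02 and 18.9 TPM (2.83-fold). At 10 hpf none of 8 was past the rule, and their median was 0.26. The catenins and other adherens junction genes had none of 5 past the rule at either stage, with medians of 0.29 and 0.21. Without rescaling 2 of 5 were higher at 24 hpf (median 0.84), and the beta-catenin gene ctnnb1 stood at 396 and 401 TPM at 24 hpf (−0.62, and 0.018 without rescaling). Of the genes linked to epcam, 1 of 5 measured was past the rule at 10 hpf, as higher, beside 3.79% higher over all genes. This was the Hai protease inhibitor gene spint1b (2.57 and 5.70 TPM, 2.35-fold), which reached the floor only through the rbm14 library. The other 4 measured lay between. At 24 hpf none of 4 was past the rule, or 4 of 6 as higher without rescaling (median 1.13), beside 2459 of all 9121 genes. The claudin gene cldn7b had 137.8 and 280.5 TPM at that stage (0.39).

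Skin keratins and other markers of the surface did not move as a block. At 24 hpf, of 14 measured genes, 1 was past the rule as higher, 3 as lower and 10 lay between, beside 6.27% higher and 9.99% lower over all genes. Their median was −0.29, which turned to 0.35 without rescaling. The basal keratin gene krtt1c19e had 82.4 TPM (control) and 17.6 TPM (rbm14), 7.06-fold lower and past the rule like and1 and and2. The others past the rule were krt91 (111 and 57.2 TPM, 3.01-fold lower), the secretory cell gene agr2 (50.8 and 32.2 TPM, 2.43-fold lower) and krt18 (965 and 4439 TPM, 2.95-fold higher). Without rescaling krtt1c19e was the 1 gene still past the rule as lower, and 2 of 14 were past it as higher. Of all 9121 genes then measured, 2459 were higher and 250 lower. The periderm keratin gene krt4 stood at 1558 times the tp63 level in the 24 hpf control and at 1519 times in the rbm14 library. In the 10 hpf libraries it stood at 1607 times (control) and 4284 times (rbm14), where tp63 was low at 5.09 and 2.00 TPM. At 10 hpf only 1 of 12 measured genes was past the rule, as higher, beside 3.79% higher over all genes. This was the claudin gene cldnb (462 and 780 TPM, 2.01-fold). It was not past the rule with median-of-ratios (log2 ratio 0.999) or without rescaling (0.75).

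**Figure D4:**
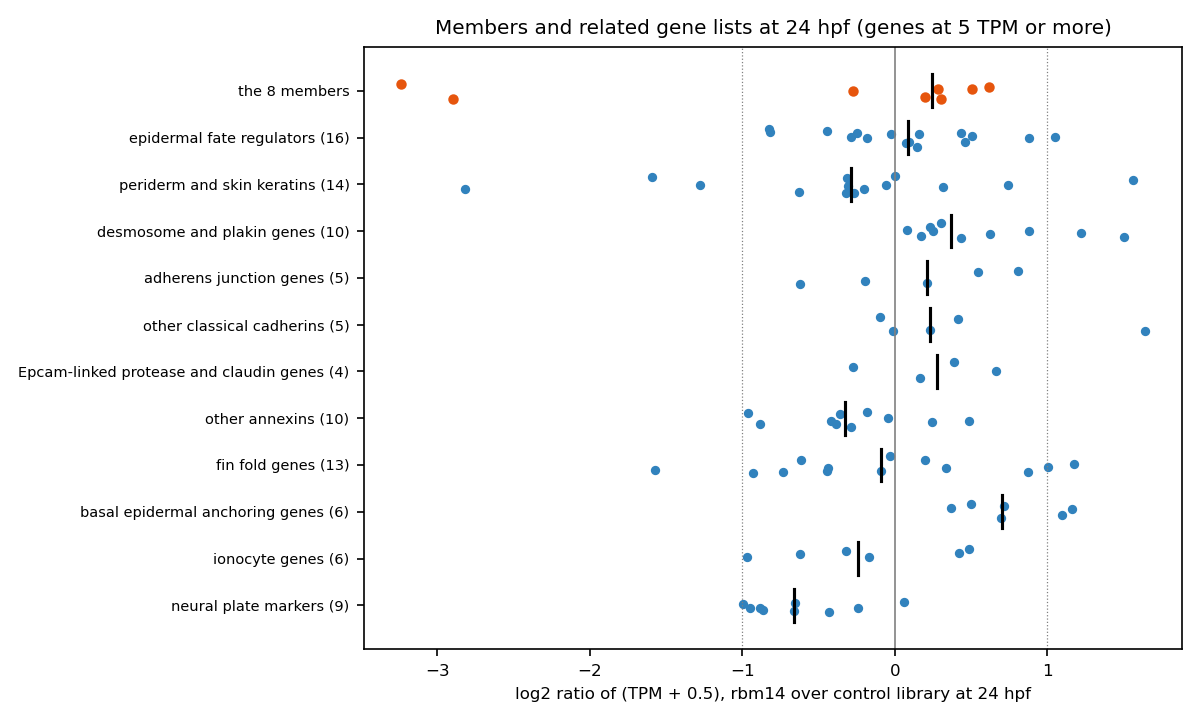
Log2 ratio of the rbm14 over the control library at 24 hpf (x axis, TPM + 0.5, trimmed-mean scaling) for the 8 members (orange) and for measured genes of each related list (blue, with the number of genes in parentheses). Short vertical bars are medians and dotted lines mark 2-fold; the members' median is 0.24 although and1 and and2 lie below −2, and only genes that reached 5 TPM are drawn.

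Regulators of epidermal fate had none of 14 past the rule at 10 hpf, beside 9.03% of all genes (median 0.066, or −0.18 without rescaling). The BMP target gene msx1b had 203 TPM (control) and 91.5 TPM (rbm14), a log2 ratio of −0.89, and the grainyhead-like gene grhl3 had 22.3 and 33.1 TPM (0.81). Without rescaling msx1b (−1.14) was the 1 of 14 past the rule, as lower, beside 676 lower of all 7321 genes then measured. At 24 hpf 1 of 16 was past the rule as higher, beside 6.27% over all genes, and the median was 0.083. The gene past it was foxi1 (37.8 and 122 TPM, 2.07-fold), a forkhead gene of the ectoderm. Without rescaling 5 of 15 were higher, with a median of 0.73, beside 2459 higher of all 9121 genes then measured. The ionocyte genes, which mark ion-transporting skin cells, had 1 of 3 past the rule as lower at 10 hpf, beside 5.24% over all genes. This was the proton pump subunit gene atp6v1ab (22.0 and 8.52 TPM, 2.11-fold), and the ionocyte regulator foxi3a had 12.2 and 5.19 TPM (−0.92). Without rescaling all 3 were past the rule as lower, beside 676 lower of all 7321 genes then measured. At 24 hpf none of 6 ionocyte genes was past it, with foxi3a at 54.1 and 113 TPM (0.42) and foxi3b at 53.6 and 42.4 TPM (−0.97). Their median of −0.24 turned to 0.46 without rescaling, where 2 of 7 were higher, beside 2459 of all 9121 genes. Of these 7, ca2 (4.40 and 9.85 TPM) and gcm2 (3.32 and 5.25 TPM) reached the floor only through the rbm14 library.

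Markers of other cell types were read in the same whole embryos. Of the 4 markers set for each, the summed neural plate level was 2903 TPM (control) and 3144 TPM (rbm14) at 10 hpf and 2159 and 1948 TPM at 24 hpf, and the summed periderm level was 11452 and 11924 TPM and then 28112 and 35126 TPM. Among 3 markers each, muscle stood at 21.6 and 18.4 TPM and then 6474 and 4563 TPM, and the yolk syncytial layer at 1699 and 810 TPM and then 7249 and 5596 TPM. These sums are TPM without rescaling. At 24 hpf all 4 neural plate markers were lower and all 4 periderm markers higher in the rbm14 library, and at 10 hpf all 3 muscle markers were lower. Markers did not all go the same way for neural plate and periderm at 10 hpf or for muscle at 24 hpf. Nor did those of the yolk syncytial layer at either stage. In every library krt4 made up most of the periderm sum. The krt4 log2 ratio at 24 hpf was −0.32, or 0.32 without rescaling, and those of cyt1 and cldne changed sign likewise. The ratio of ppl, a member that is also in this sum, was above 0 either way (0.28 and 0.92). Between the control libraries krt4 and cyt1 were higher at 24 hpf. In contrast, cldne went from 1632 to 506 TPM and ppl from 157 to 59.8 TPM. Most of the yolk syncytial sum was apoa1b, which like tfa was lower in the rbm14 library at both stages. The third marker, mxtx2, was higher there (0.61 and 9.99 TPM, then 0.17 and 0.47 TPM). In the muscle sum myod1 had 166 and 179 TPM at 24 hpf. The 4 basal epidermal markers summed to 6.41 and 2.42 TPM and then 99.2 and 39.6 TPM. At 24 hpf krtt1c19e made up 82.4 TPM of this sum in the control library, and in the rbm14 library it had 17.6 TPM beside 18.2 TPM of tp63. The basal collagen gene col17a1a was near 0 at 24 hpf in both libraries (0.10 and 0.09 TPM), and krtt1c19e was listed at 0 in the 10 hpf rbm14 library. The part of tissue makeup in the members' values was not tested.

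The direction of many calls rests on the scaling between libraries. Among genes past the size rule at 10 hpf, 41.9% were higher in the rbm14 library, against 18.7% without rescaling, and at 24 hpf 38.6% against 90.8%. For 24 over 10 hpf, the share higher was 59.4% against 38.2% in the controls and 59.4% against 73.0% in the rbm14 libraries. Both actinodin ratios at 24 hpf were below 0 with trimmed-mean, median-of-ratios and no scaling.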

How the data were processed

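The authors deposited TPM per Ensembl transcript with a gene symbol for each of the 4 libraries; the values carry decimals and add up to 1000000 a library, which gave the unit. Per the submitters' processing notes, the tools were HTSeq 0.6.1, HISAT2 2.0.1 and Trimmomatic 0.30 and the build was GRCz10, without roles. Which tool quantified transcripts, on what annotation and strand setting, is not given in the sources used here. With Python 3.11.15 and pandas 2.3.3, transcripts were added up by symbol. Library pairs were brought to a common scale with the unweighted trimmed mean of their log2 ratios, over genes at 1 TPM or more in both libraries, trimming 30% of ratios and 5% of levels at each end, the shift being shared equally between both libraries. A pseudocount of 0.5 TPM was added, and the size rule was 2-fold with 5 TPM in the higher scaled value. This scale understates differences of low genes. The procedure was tested only on simulated knockdown pairs, with equal numbers of genes raised and lowered. Uneven changes, changes in as many genes as seen here, and the stage comparisons were not simulated. No fold is given against a 0, which can be a failed estimate. Reads of near-identical or overlapping genes cannot be told apart. The members and lists were chosen with earlier results of these data known. Text names all members, up to 4 genes per list and stage by absolute ratio plus those past the rule, and 3 genes of nearest pattern per member. Of the others, and3, fras1, krt4 and col17a1a were fixed as markers or ratio partners. Named after their values were seen were itga6b, itgb4 and genes given for reaching the floor through 1 library without rescaling. Names were matched through RefSeq synonyms of assembly GRCz12tu, and no coordinates or sequences are given. Alternatives were other scalings, pseudocounts, floors, thresholds and the most abundant transcript per gene. Results for 1 further list are not reported here.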

Additional observations from a re-analysis of the deposited data

How the results depend on the processing

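Each single-member ratio was read under every alternative, which gave 288 cases. Of these, 262 kept their direction and their side of the size rule, and 17 passed it only under the alternative. Another 6 no longer passed it, and 3 had another sign without passing it. Changed floors and thresholds leave the log2 ratio as it is, so direction was fixed in advance in those cases. The 262 are therefore not read as a measure of stability. The count of members past the rule at 10 hpf was 0, and 1 (tp63) without rescaling, where 155 of 7321 genes were higher and 676 lower. There tp63 was measured only through the control library, so this count is not read as a result. At 24 hpf the count was 2, and 1 (and1) with a pseudocount of 5 TPM or a floor of 20 TPM, since and2 is low. Without rescaling it was 3, evpla (log2 ratio 1.25) and cdh1 (1.13) as higher and and1 as lower. Over all 9121 genes then measured, 2459 were higher and 250 lower. For 24 over 10 hpf the count of members was 4 in the controls, and 7 without rescaling. Over all 8784 genes measured without rescaling, 2029 were higher and 3282 lower. In the rbm14 libraries the count of members was 2, with 1 at a floor of 20 TPM and 5 at a 1.5-fold threshold. A changed floor or threshold also moves the count over all genes, so member counts at such settings are not read as results. With the most abundant transcript per gene, and1/tp63 was 0.338 and 1.63 in the 10 hpf control and rbm14 libraries and 0.308 in the 24 hpf rbm14 library. Likewise krt4/tp63 was 3110 and 21418 at 10 hpf and 2445 in the 24 hpf rbm14 library, and in the 24 hpf control ppl/evpla was 4.69 and epcam/cdh1 20.5. These follow from leaving out the other transcripts. Counts over all genes moved by over 1.5 times: from 651 at 10 hpf to 177 to 1873, from 1411 at 24 hpf to 454 to 3228, from 4736 in the controls' stages to 2400 to 8521 and from 5320 in the rbm14 stages to 2666 to 9800. No paired analysis was possible because each group has 1 library. Depth is unknown, so levels under about 1 TPM, such as and1 and and2 at 10 hpf, carry no stated error.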

Other observations

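Other members of the cadherin and annexin families were set beside cdh1 and anxa1a. Of 5 measured classical cadherin genes of other tissues at 24 hpf, 1 was past the size rule as higher, beside 6.27% over all genes. This was the muscle cadherin gene cdh15 (2.70 TPM control, 14.4 TPM rbm14, 3.11-fold), which reached the floor only through the rbm14 library. The neural cadherin gene cdh2 had 18.5 and 34.0 TPM (log2 ratio 0.23), close in level to cdh1 at 24 hpf. At 10 hpf cdh2 (46.2 and 47.9 TPM, 0.30) and cdh6 (26.7 and 28.1 TPM, 0.32) were the measured ones, and neither was past the rule.

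Of 10 measured annexin genes at 24 hpf none was past the rule as higher or lower, with a median of −0.32 that turned to 0.38 without rescaling. The anxa1a paralog anxa1b had 29.8 and 65.2 TPM (0.48), and anxa3a had 4.36 and 3.18 TPM (−0.96). The 9 neural plate markers, the counterpart of the surface ectoderm, had none past the rule at either stage, or 1 as lower at 24 hpf with median-of-ratios scaling. Their median was 0.062 at 10 hpf, or −0.19 without rescaling, and −0.66 at 24 hpf, or −0.029 without rescaling, with zic1 (151 and 118 TPM) the lowest at 24 hpf.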
